A study of Homo sapiens with 48 samples.

Results

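Transcripts of 10 genes of the BCL2 family were measured in 8 human cancer cell lines that had received the proteasome inhibitor carfilzomib or its solvent DMSO. The genes were taken by symbol from a matrix of read counts and make up 10 of its 33892 rows. They are the BH3-only genes PMAIP1, BBC3, BCL2L11 and BIK, the effector genes BAX and BAK1, and the anti-apoptotic genes MCL1, BCL2, BCL2L1 and BCL2A1. Each symbol named 1 row, and of the 10 rows 0 shared an Ensembl identifier with another row.

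The lines stem from colon cancer (RKO and DLD-1), lung cancer (H-23, H-1299), pancreatic cancer (PANC-1, CAPAN-2) and multiple myeloma (H-929, RPMI). Every line was grown in vitro in 2D culture and exposed for 24 h to carfilzomib or to DMSO, with 3 libraries labelled as biological replicates in each of the 16 groups, 48 libraries in all. The dose in each line was set by the IC50 for proteasome activity. The concentrations themselves were not used here, and a difference between lines cannot be told apart from a difference in concentration. Each tissue was represented by a pair of established lines.

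Proteins of the BCL2 family decide whether the outer membrane of the mitochondrion is opened, the step that releases cytochrome c and starts the caspases of apoptosis. BAX and BAK1 form the pore, the anti-apoptotic members bind and hold them, and the BH3-only members are induced or freed by stress and occupy the anti-apoptotic members or activate the effectors. Carfilzomib is used against multiple myeloma, a tumour of plasma cells, and MCL1 and PMAIP1 are among the short-lived proteins that the proteasome degrades. Only RNA was measured, so protein levels of the family were not seen.

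Totals ran from 9.12 to 64.4 M counts per library, with 12.6 to 22.6 M in RKO and 9.12 to 18.9 M in H-929 as the lowest lines. Treated libraries held fewer counts than DMSO libraries in H-929 (9.12 to 9.93 M against 14.6 to 18.9 M). The same was true of H-1299 (24.0 to 35.4 M against 38.5 to 64.4 M), and in the other lines the totals of the treatments overlapped. The 8 plasma cell markers (such as CD38, IRF4, TNFRSF17 and MZB1) all had means above 1 CPM (counts scaled to a common library total) in both myeloma lines. In the carcinoma lines 3 of the 8 did so, SDC1, XBP1 and PRDM1, and in RKO TNFRSF17 (1.96 CPM) as well. Of the 5 epithelial markers, all 5 did so in DLD-1, H-23, PANC-1 and CAPAN-2, 3 in RKO and 2 in H-1299, against 4 in RPMI and 1 in H-929. In DMSO, KRT19 and CDH1 averaged 0 and 0.0393 CPM in RKO, and EPCAM, KRT19 and CDH1 averaged 0.173, 0.0636 and 0 CPM in H-1299. EPCAM averaged 104.7 CPM in RPMI, 4.75 CPM in H-23 and 0.0181 CPM in H-929. In each group the replicates were further apart than sampling of reads would make them, and all 48 libraries were kept.

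The first comparison asked how much of each transcript the lines held without carfilzomib. Levels here are CPM per kilobase of exon in the DMSO libraries, as mean ± SD (n = 3), a scale that allows for gene length. Comparisons between genes on it depend on the length taken, here the union of all exons of a gene. All 10 genes differed between the lines in edgeR's quasi-likelihood test over the 24 DMSO libraries, as did 98.8% of all genes tested. BCL2 covered the widest range among genes with counts in every line, and BAX the narrowest, 2.61-fold between its highest and lowest line.

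**Figure D1:**
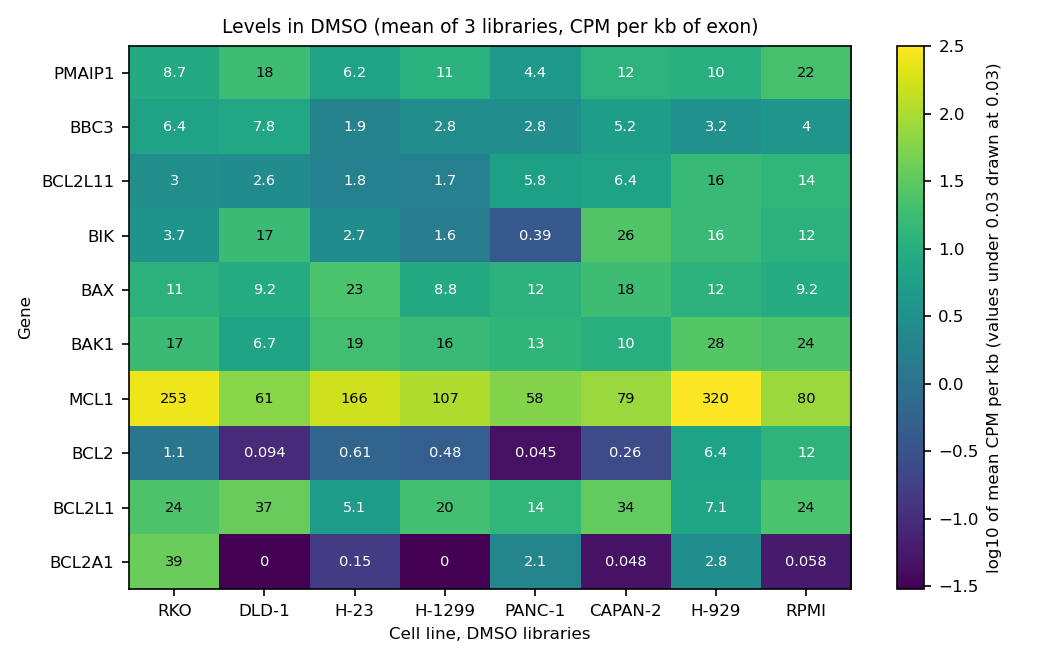
Mean level of each gene (rows) in the 3 DMSO libraries of each cell line (columns), in CPM per kilobase of exon, printed in each cell and coloured on a log10 scale. MCL1 is the brightest row, from 57.7 in PANC-1 to 320.4 in H-929, and the BCL2 row is brightest in H-929 and RPMI, with 6.41 and 12.3.

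Among the anti-apoptotic genes, MCL1 had the highest level in each of the 8 lines. It was highest in H-929 (320.4 ± 24.8), followed by RKO (253 ± 2.41), H-23 (166 ± 8.76) and H-1299 (107 ± 1.11), whose libraries did not overlap between neighbours. RPMI (79.6 ± 7.82) and CAPAN-2 (78.5 ± 3.26) overlapped, and DLD-1 (61.5 ± 2.08) and PANC-1 (57.7 ± 0.293) stood lowest. The myeloma lines lay far apart for MCL1, one at the top of the order and one in its lower part.

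BCL2, the target of the drug venetoclax, had another order. RPMI stood at 12.3 ± 0.833 and H-929 at 6.41 ± 0.0535, and RKO, at 1.12 ± 0.0964, was the highest carcinoma line. H-23 (0.614 ± 0.0435), H-1299 (0.481 ± 0.0538) and CAPAN-2 (0.259 ± 0.0211) followed, and DLD-1 and PANC-1 held 0.0937 ± 0.0220 and 0.0455 ± 0.0119. No neighbours in this order overlapped, and RPMI was 270.3-fold above PANC-1, where the libraries held 13 to 19 counts.

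BCL2L1, which encodes BCL-XL, was high in DLD-1 (37.1 ± 1.008) and CAPAN-2 (34.5 ± 3.31), which overlapped, then in RKO (23.7 ± 1.06) and RPMI (23.6 ± 1.77), which overlapped as well. It was lowest in H-929 (7.10 ± 0.335) and H-23 (5.10 ± 0.227). Both were among the lines with the most MCL1, as was RKO, whose BCL2L1 was among the higher levels. BCL2A1, known as a target gene of NF-kB, stood at 38.9 ± 3.01 in RKO and at 2.80 ± 0.330 and 2.06 ± 0.168 in H-929 and PANC-1. It was at or below 0.151 in the other lines, with 0 counts in all DMSO libraries of DLD-1 and H-1299, where 3 counts, the limit that a count of 0 allows, would correspond to at most 0.0868 and 0.0740. These limits cover counting error only.

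Of the pro-apoptotic genes, BCL2L11 and BAK1 were higher in both myeloma lines than in every carcinoma line. BCL2L11, which encodes BIM, stood at 16.1 ± 0.718 in H-929 and 13.7 ± 0.305 in RPMI, against 1.70 in H-1299 to 6.37 in CAPAN-2 among carcinoma lines. BAK1 stood at 28.2 ± 0.799 and 24.3 ± 1.85 in the myeloma lines and at 6.66 in DLD-1 to 19.1 in H-23 in the carcinoma lines. BCL2 was the one other gene with no overlap between the myeloma and the carcinoma line means. The share of all genes whose line means lie apart in this way is not given here, so these genes cannot be set against it. A contrast of the tumour types was not tested, since it rests on 2 lines against 6.

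PMAIP1, which encodes NOXA, ranged from 4.43 ± 0.212 in PANC-1 to 21.6 ± 2.60 in RPMI, with CAPAN-2, H-1299, H-929 and RKO overlapping in turn between them. BBC3, which encodes PUMA, ranged from 1.90 ± 0.0493 in H-23 to 7.78 ± 0.831 in DLD-1, which overlapped with RKO (6.37 ± 0.927). BIK was highest in CAPAN-2 (25.7 ± 2.08) and 66.25-fold lower in PANC-1, where its libraries held 6 to 20 counts. BAX was highest in H-23 (22.8 ± 0.872) and lowest in H-1299 (8.76 ± 0.508), with PANC-1, H-929 and RKO overlapping between 11.5 and 11.8 and with RPMI, DLD-1 and H-1299 overlapping below them.

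The second comparison asked how carfilzomib changed these transcripts, line by line. The 6 libraries of a line were compared by the quasi-likelihood test of edgeR. A gene was called, and is said here to have risen or fallen, when its p, adjusted by Benjamini and Hochberg over all genes tested in that line, was under 0.05. Values from here on are CPM on a scale normalized within the line, and changes are log2 fold changes, carfilzomib against DMSO, ± SE, with 3 libraries in each group. Of the 80 gene and line pairs, 75 passed the filter on low counts, and of these 22 rose and 23 fell (60.0%). Over all genes and lines, 41.9% of the tests were called, 20.8% as higher and 21.1% as lower.

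The share called varied between lines for the family and for all genes. In RKO, 2 genes rose and 1 fell of 10 tested, where 3.62% of all genes rose and 5.28% fell. DLD-1 gave 2 higher and 1 lower of 9 (all genes 10.9% and 12.1%), H-23 gave 3 and 2 of 10 (17.7% and 16.2%), and PANC-1 gave 4 and 1 of 9 (20.5% and 18.2%). CAPAN-2 gave 3 higher and 3 lower of 9 (all genes 25.7% and 26.7%), and H-929 gave 4 and 3 of 10 (26.4% and 26.2%). H-1299 gave 2 higher and 6 lower of 9 (all genes 29.8% and 31.3%), and RPMI gave 2 and 6 of 9 (31.3% and 32.2%). The median log2 change of the family was -0.38 in H-1299 and -0.34 in RPMI and lay between -0.15 and 0.14 in the other lines, while the median of all genes lay between -0.02 and 0.03 in every line. Changes of that size were common: regardless of sign, the median log2 change of all genes was 0.43 in H-1299 and 0.47 in RPMI. With library totals in place of normalized ones, the median of all genes moved by -0.11 in H-1299, and the share of higher calls among all genes called went from 40.6% to 60.9% in RKO and from 47.5% to 60.3% in DLD-1. No gene of the family that was called changed direction under that scaling or under size factors of the RLE method. In H-929, estimates moved with the filter and the fit as well. At a filter of 50 mean counts BCL2L11 went from 0.19 to 0.30 and BAK1 from -0.34 to -0.23. BCL2L1, which was not called there, went from 0.05 to -0.03 without a filter and to -0.11 in one fit of all 48 libraries. The SE printed for H-929 does not hold such shifts.

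By role, 8 of 31 tests of BH3-only genes were called higher and 8 lower, 7 and 6 of 16 tests of effector genes, and 7 and 9 of 28 tests of anti-apoptotic genes. Of the calls, 6 were of at least 2-fold: PMAIP1 in H-929 and RPMI, BBC3 in H-929 and BCL2A1 in PANC-1 as rises, and BCL2 in CAPAN-2 and BCL2A1 in H-929 as falls. That was 3 of 10 tests in H-929 and 1 of 9 in each of RPMI, CAPAN-2 and PANC-1. Of all genes, 20.2% were called at that size in H-929, 19.8% in RPMI, 10.3% in CAPAN-2 and 2.24% in PANC-1. In the lines with 0 such calls in the family it was 13.7% in H-1299 and 0.516% to 1.87% in RKO, DLD-1 and H-23. The response differed between lines for all 10 genes in a joint fit of the 48 libraries (edgeR, adjusted p at most 0.00313), as it did for 67.7% of all genes.

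**Figure D2:**
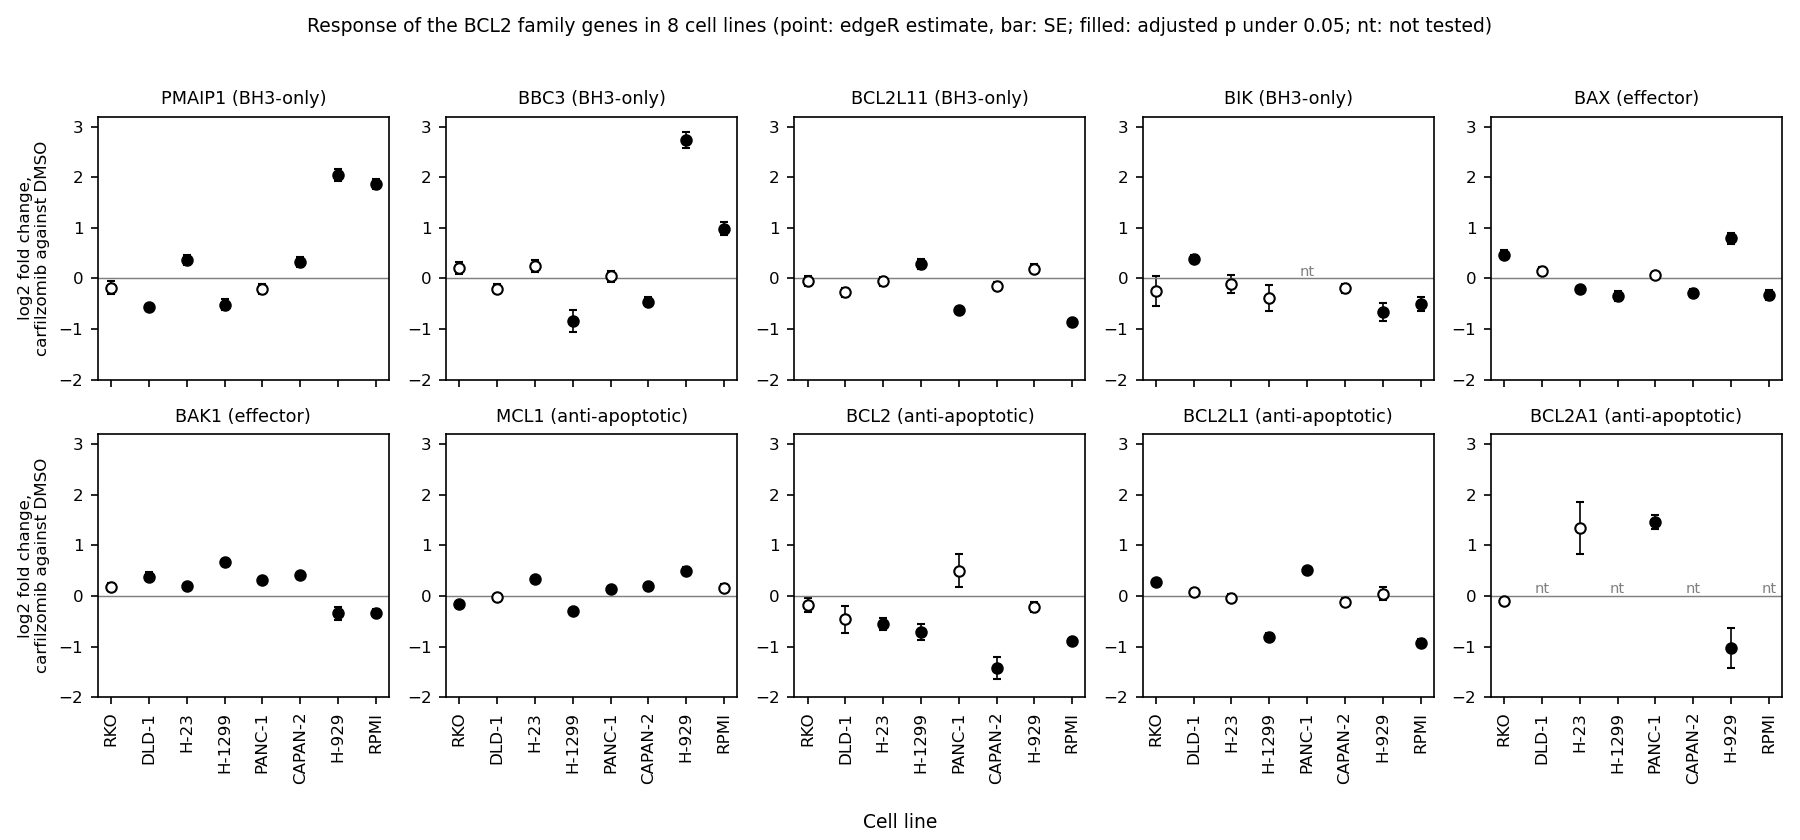
Log2 fold change after carfilzomib (vertical axis, estimate with SE) of each of the 10 genes in the 8 cell lines (horizontal axis); filled points passed the test, open points did not, and nt marks pairs that were not tested. PMAIP1 and BBC3 sit highest in the 2 myeloma lines at the right, at 0.99 to 2.74, while BAK1 sits below 0 in those lines and above 0 in the 6 others.

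PMAIP1, the BH3-only gene whose product binds MCL1 and BCL2A1, had its largest increases in the myeloma lines. In H-929 the libraries held 21.3, 20.8 and 19.3 CPM in DMSO and 94.5, 73.5 and 86.3 CPM after carfilzomib. In RPMI they held 49.6, 40.5 and 39.3 CPM in DMSO and 141, 153 and 174 CPM after carfilzomib. Treatment groups were far apart in both, and PMAIP1 rose 4.13-fold in H-929, by 2.05 ± 0.12 (adjusted p = 7.06e-09), and 3.65-fold in RPMI, by 1.87 ± 0.092 (adjusted p = 1.02e-09). The libraries are bulk RNA, so more cells carrying a transcript and more transcript per cell cannot be told apart.

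Markers of cell identity moved in the same libraries. The summed level of the 8 plasma cell markers went from 7117 to 7532 CPM in DMSO to 4421 to 4605 CPM after carfilzomib in H-929, where all 8 means were lower. In RPMI it went from 2716 to 3034 CPM to 1331 to 1534 CPM, with 7 of 8 means lower. Of 14 markers of fibroblasts, endothelium, T cells and myeloid cells, 12 had higher means after carfilzomib in H-929 and 9 in RPMI, with summed levels of 254 to 313 CPM in DMSO and 241 to 273 CPM after carfilzomib in H-929, and of 3.83 to 4.94 and 5.90 to 7.69 CPM in RPMI. Most of the sum in H-929 was PECAM1, at 262.4 CPM in DMSO and 218.6 CPM after carfilzomib, and CD3E, at 20.35 and 16.6 CPM, the 2 markers with lower means. The 5 fibroblast markers there summed to 0.325 to 1.36 CPM in DMSO and 6.36 to 9.74 CPM after carfilzomib. The summed level of the 5 epithelial markers in H-929 was 41.9 to 54.4 CPM in DMSO and 89.7 to 97.7 CPM after carfilzomib, with EPCAM at 0 and KRT19 at 0.140 CPM after treatment. Markers moved in carcinoma lines too. The epithelial sum went from 883 to 990 CPM in DMSO to 353 to 380 CPM after carfilzomib in H-1299, the carcinoma line with most falls of the family, and from 12699 to 13612 CPM to 10622 to 10947 CPM in CAPAN-2. It went up in DLD-1, from 8487 to 9556 CPM to 10690 to 11046 CPM, and in PANC-1, from 5598 to 5659 CPM to 6192 to 6382 CPM. Of the 5 epithelial means, 4 were higher in DLD-1, 3 in PANC-1, 3 in H-1299 and 1 in CAPAN-2, and the rest were lower. The 3 in H-1299 were EPCAM, KRT19 and CDH1, at no more than 0.327 CPM. In H-23 the epithelial sum was 4192 to 4476 CPM in DMSO and 4418 to 4717 CPM after carfilzomib. There 3 of the 5 means were higher and 2 lower, with CDH1 lower, at 112.9 CPM in DMSO and 29.9 CPM after carfilzomib. The fibroblast sum in PANC-1, mostly COL3A1, went from 162 to 173 CPM to 85.9 to 101.4 CPM, although 3 of its 5 means were higher. The part of these markers in the results was not tested.

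The carcinoma lines showed smaller changes of PMAIP1 in both directions. It rose in H-23, where libraries held 15.2, 14.1 and 17.1 CPM in DMSO and 18.1, 22.5 and 19.3 CPM after carfilzomib, a change of 0.37 ± 0.094 (adjusted p = 0.00769). It rose as well in CAPAN-2, from 29.6, 25.1 and 21.3 CPM to 30.2, 32.8 and 31.996 CPM, by 0.32 ± 0.096 (adjusted p = 0.0114). In both lines every treated library lay above every DMSO library, but without carfilzomib replicate 2 the change in H-23 was 0.26 (adjusted p = 0.0533).

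PMAIP1 fell in DLD-1, from 39.9, 45.9 and 41.1 CPM to 27.03, 30.2 and 28.2 CPM, a change of -0.57 ± 0.069 (adjusted p = 0.00026). In H-1299 it fell from 25.6, 19.7 and 24.6 CPM to 17.9, 15.4 and 15.7 CPM, a change of -0.52 ± 0.10 (adjusted p = 0.000881), again with no overlap between treatments. In RKO (-0.18 ± 0.12, adjusted p = 0.417) and PANC-1 (-0.21 ± 0.10, adjusted p = 0.12) it did not pass the test. The treatments overlapped in RKO, whereas in PANC-1 all treated libraries lay below the DMSO libraries.

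BBC3, whose product binds every anti-apoptotic member, had the largest change of the family. In H-929 the libraries held 10.2, 7.81 and 9.87 CPM in DMSO and 51.1, 63.7 and 70.9 CPM after carfilzomib, a 6.66-fold rise with a log2 change of 2.74 ± 0.15 (adjusted p = 6.05e-09). In RPMI they held 13.3, 10.3 and 10.3 CPM in DMSO and 19.1, 23.5 and 23.7 CPM after carfilzomib, a rise of 0.99 ± 0.12 (adjusted p = 1.1e-05). Every treated library exceeded every DMSO library in both lines.

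BBC3 fell in CAPAN-2, from 15.3, 15.3 and 16.1 CPM to 11.3, 10.8 and 11.8 CPM, a change of -0.46 ± 0.086 (adjusted p = 0.000387). It fell in H-1299 too, a change of -0.84 ± 0.21 (adjusted p = 0.00403), but there the DMSO libraries were spread, at 9.35, 5.38 and 10.5 CPM, and the lowest of them lay among the treated libraries at 4.46, 5.42 and 4.22 CPM. In the remaining lines BBC3 did not pass the test, with 0.20 ± 0.11 (adjusted p = 0.311) in RKO, -0.20 ± 0.083 (adjusted p = 0.107) in DLD-1, 0.24 ± 0.12 (adjusted p = 0.128) in H-23 and 0.04 ± 0.11 (adjusted p = 0.807) in PANC-1. In DLD-1 it changed by -0.28 (adjusted p = 0.0143) without DMSO replicate 3.

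Since PMAIP1 and BBC3 rose together in the myeloma lines, the sequence just upstream of each is shown, from the RefSeq promoter table (GRCh38.p14), which holds 300 bases per start site, 250 before and 50 after it. The 250 upstream bases are printed 5′ to 3′ on the strand of the gene, chr18:59899746-59899995 on the plus strand for PMAIP1 and chr19:47232668-47232917 on the minus strand for BBC3. Capitals mark matches to 1 of 5 motifs.
PMAIP1: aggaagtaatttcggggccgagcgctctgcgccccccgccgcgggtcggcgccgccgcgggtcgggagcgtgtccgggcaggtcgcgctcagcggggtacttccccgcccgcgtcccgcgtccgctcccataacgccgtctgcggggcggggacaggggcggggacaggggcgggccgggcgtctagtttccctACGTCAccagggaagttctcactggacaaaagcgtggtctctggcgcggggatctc
BBC3: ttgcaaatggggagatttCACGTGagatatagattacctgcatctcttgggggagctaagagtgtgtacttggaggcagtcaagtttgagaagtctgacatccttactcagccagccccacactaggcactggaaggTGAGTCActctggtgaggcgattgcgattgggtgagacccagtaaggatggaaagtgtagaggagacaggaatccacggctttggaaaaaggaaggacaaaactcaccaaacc

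The motifs, searched on both strands of the 300 bases, were TGACGT (the core of the CRE, bound by factors of the ATF family), TGANTCA (the site of AP-1), TGATGCAA (the composite site of ATF4 and CEBP), the heat shock element and CACGTG (an E-box). The PMAIP1 window holds 1 match, TGACGT on the opposite strand, read as ACGTCA from base -56. The BBC3 window holds TGANTCA, read as TGAGTCA from base -113, and CACGTG from base -232. Of 35116 windows in the table, 7.98% hold TGACGT, 7.71% TGANTCA and 7.26% CACGTG.

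Windows were found for 8 of the 10 genes, not for BIK and MCL1. The BAX window holds CACGTG at 4 places, from bases -138, -93, -45 and -14, and the BCL2A1 window holds TGATGCAA from base -63, a motif found in 0.866% of windows. The heat shock element, found in 0.490% of windows, was not matched in the windows of the family. A match of letters is a description and no measure of binding, and binding was not measured here.

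**Figure D3:**
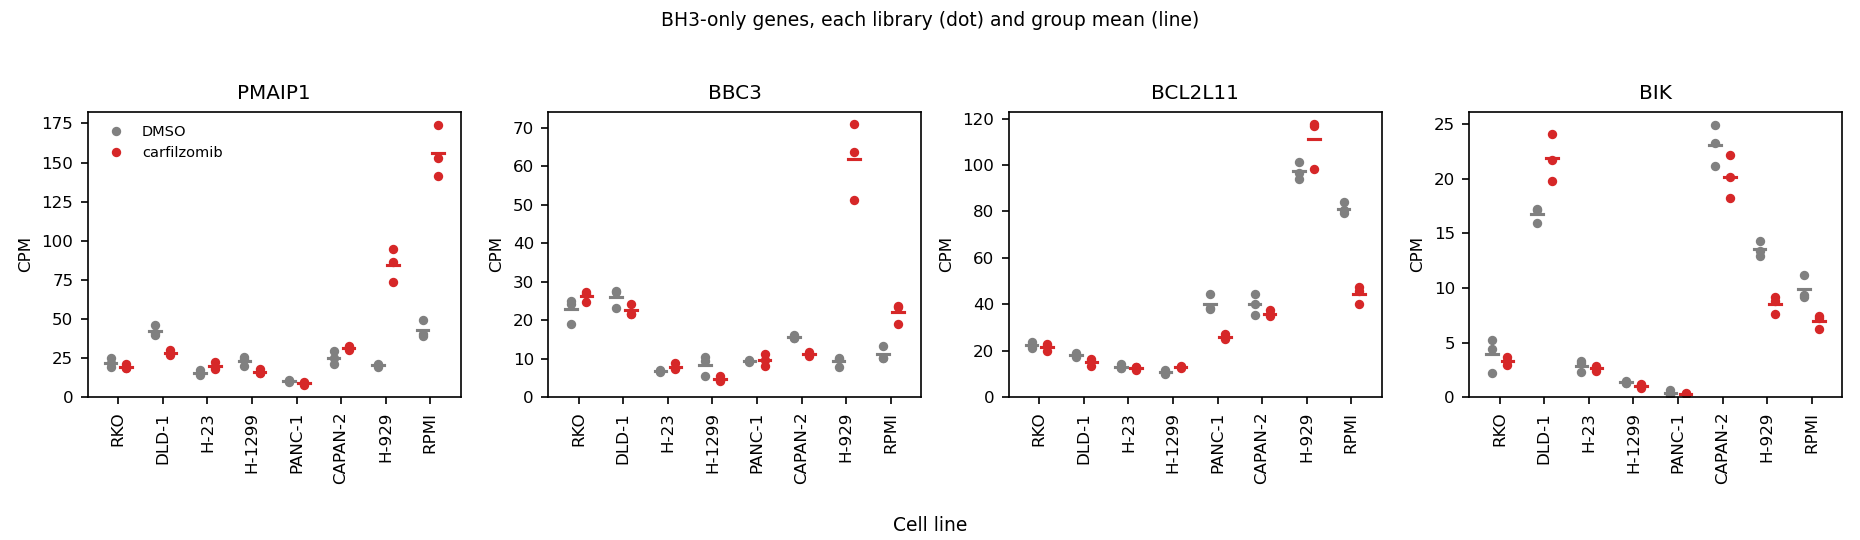
CPM (vertical axis, linear) of the 4 BH3-only genes in every library (dots) with group means (lines), by cell line (horizontal axis) and treatment (grey DMSO, red carfilzomib). For PMAIP1 and BBC3 the treated libraries of H-929 stand clear of their DMSO libraries (73.5 to 94.5 against 19.3 to 21.3 CPM, and 51.1 to 70.9 against 7.81 to 10.2 CPM), and BCL2L11 in RPMI shows the opposite order.

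BCL2L11, whose BIM proteins bind all anti-apoptotic members and can activate BAX directly, fell in RPMI and PANC-1 and rose in H-1299. In RPMI the libraries held 84.2, 80.4 and 79.1 CPM in DMSO and 45.6, 40.2 and 47.6 CPM after carfilzomib, a 1.82-fold fall with a log2 change of -0.87 ± 0.066 (adjusted p = 7.66e-08). In PANC-1 they held 38.2, 37.98 and 44.3 CPM in DMSO and 25.9, 27.3 and 25.1 CPM after carfilzomib, with -0.62 ± 0.065 (adjusted p = 8.53e-06). The treatments were apart in both lines. In H-929, the line with the most BCL2L11, the change was 0.19 ± 0.091 (adjusted p = 0.0911), and the treated libraries, at 117, 98.4 and 118 CPM, overlapped with DMSO, at 96.6, 101 and 93.9 CPM.

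The rise in H-1299 was 0.29 ± 0.095 (adjusted p = 0.0189), from 11.5, 10.03 and 10.4 CPM to 12.5, 12.9 and 13.6 CPM. It did not pass the test without DMSO replicate 2 (adjusted p = 0.0537), without DMSO replicate 3 (0.0637) or without carfilzomib replicate 3 (0.0765), nor with library totals as the scale (0.18, adjusted p = 0.136) or in the joint fit (0.21, 0.0618). The other changes were -0.04 ± 0.10 (adjusted p = 0.847) in RKO, -0.27 ± 0.091 (adjusted p = 0.0554) in DLD-1, -0.05 ± 0.087 (adjusted p = 0.681) in H-23 and -0.15 ± 0.076 (adjusted p = 0.103) in CAPAN-2. BCL2L11 passed in H-929 without carfilzomib replicate 2 (0.24, adjusted p = 0.0323), in DLD-1 without carfilzomib replicate 2 (-0.34, 0.0493) and in CAPAN-2 without DMSO replicate 2 (-0.22, 0.0206). With a filter of 50 mean counts it passed in H-929 (0.30, adjusted p = 0.0107) and DLD-1 (-0.27, 0.0493). In DLD-1 it passed with DESeq2 (-0.27, adjusted p = 0.0414) and in the joint fit (-0.28, 0.0266) as well. The splice forms of BIM differ in potency, and counts per gene do not separate them.

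BIK, a BH3-only gene whose product sits in the endoplasmic reticulum, fell in both myeloma lines and rose in DLD-1. In H-929 it went from 13.4, 14.3 and 12.9 CPM to 8.79, 9.19 and 7.66 CPM, a change of -0.66 ± 0.18 (adjusted p = 0.00756), and in RPMI from 9.19, 9.39 and 11.2 CPM to 7.28, 6.28 and 7.44 CPM, a change of -0.51 ± 0.14 (adjusted p = 0.00663). In DLD-1 it went from 17.2, 17.1 and 15.95 CPM to 21.8, 19.8 and 24.1 CPM, by 0.38 ± 0.084 (adjusted p = 0.00811), a call lost in the joint fit of all libraries (0.38, adjusted p = 0.149). No treated library reached into the DMSO range in these 3 lines.

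In the myeloma lines BIK moved against PMAIP1 and BBC3. CAPAN-2, with the most BIK, changed by -0.20 ± 0.087 (adjusted p = 0.0713) and passed the test without DMSO replicate 3 (-0.26, adjusted p = 0.0251) or without carfilzomib replicate 3 (-0.26, 0.0368). It passed as well with library totals (-0.22, adjusted p = 0.0437) and without the filter on low counts (-0.20, 0.0479). RKO (-0.25 ± 0.30, adjusted p = 0.674), H-23 (-0.11 ± 0.18, adjusted p = 0.699) and H-1299 (-0.38 ± 0.26, adjusted p = 0.223) had at most 5.21 CPM of BIK in any library and large errors. PANC-1, at 0.215 to 0.678 CPM, was below the filter.

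Of the effectors, BAK1, which resides in the outer mitochondrial membrane, was the gene of the family called in most lines, with 5 rises and 2 falls. Its largest rise was in H-1299, from 31.3, 34.9 and 33.4 CPM to 50.7, 56.5 and 50.02 CPM, by 0.66 ± 0.067 (adjusted p = 2.25e-06). In CAPAN-2 it went from 22.3, 21.1 and 20.99 CPM to 28.6, 28.9 and 28.5 CPM, by 0.42 ± 0.064 (adjusted p = 6.85e-05). In PANC-1 it went from 29.7, 28.7 and 30.2 CPM to 36.7, 36.6 and 37.5 CPM, by 0.32 ± 0.046 (adjusted p = 0.000117). Each treated library lay above all DMSO libraries in these lines.

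Other rises of BAK1 were found in DLD-1, from 17.1, 15.2 and 14.02 CPM to 21.8, 18.8 and 20.03 CPM, by 0.38 ± 0.091 (adjusted p = 0.0126), and in H-23, from 46.4, 47.5 and 47.9 CPM to 54.9, 54.4 and 53.4 CPM, by 0.20 ± 0.042 (adjusted p = 0.00242). The call in DLD-1 was lost without carfilzomib replicate 1 (0.33, adjusted p = 0.0723), and that in H-23 in the joint fit of all libraries (0.18, adjusted p = 0.137). In RKO the change was 0.17 ± 0.080 (adjusted p = 0.215), with the lowest treated library inside the DMSO range.

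In the myeloma lines, which held the most BAK1, it fell. RPMI went from 44.9, 48.1 and 51.03 CPM to 34.1, 40.7 and 38.9 CPM, a change of -0.34 ± 0.078 (adjusted p = 0.00164). H-929 went from 58.2, 54.5 and 56.7 CPM to 36.8, 43.1 and 53.6 CPM, a change of -0.34 ± 0.13 (adjusted p = 0.0329), with treated libraries that were spread but all below DMSO. That call was lost without DMSO replicate 1 (adjusted p = 0.0776), DMSO replicate 3 (0.0590), carfilzomib replicate 1 (0.0960) or carfilzomib replicate 2 (0.0603), and at a filter of 50 mean counts (-0.23, adjusted p = 0.136).

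BAX, the effector that moves from the cytosol to mitochondria, rose in H-929 and RKO and fell in 4 lines. In H-929 the libraries held 26.1, 26.8 and 27.98 CPM in DMSO and 47.8, 47.99 and 44.6 CPM after carfilzomib, a 1.74-fold rise with a log2 change of 0.79 ± 0.11 (adjusted p = 2.55e-05). In RKO they held 31.3, 33.8 and 35.2 CPM in DMSO and 41.8, 45.1 and 52.04 CPM after carfilzomib, a rise of 0.47 ± 0.089 (adjusted p = 0.00657) and the largest change of the family in that line. The treatments did not overlap in either line.

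The falls of BAX were small, -0.35 ± 0.10 (adjusted p = 0.00807) in H-1299, -0.33 ± 0.093 (adjusted p = 0.00718) in RPMI, -0.29 ± 0.076 (adjusted p = 0.00514) in CAPAN-2 and -0.21 ± 0.044 (adjusted p = 0.00194) in H-23. Mean levels went from 21.3 ± 1.33 to 16.6 ± 2.21 CPM, from 21.3 ± 1.19 to 16.98 ± 1.33 CPM, from 43.9 ± 4.76 to 35.9 ± 1.85 CPM and from 65.996 ± 2.90 to 56.97 ± 1.007 CPM in the same order (SD, n = 3), each with all treated libraries below DMSO. DLD-1 (0.15 ± 0.071, adjusted p = 0.148) and PANC-1 (0.08 ± 0.055, adjusted p = 0.306) did not pass the test, although DLD-1 did without DMSO replicate 3 (0.21, adjusted p = 0.0386). BAX and BAK1 were called in opposite directions in 4 lines: H-23, H-1299, CAPAN-2 and H-929.

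Among the anti-apoptotic genes, BCL2 was called in 4 lines, each time as a fall. In CAPAN-2, with little BCL2, the libraries held 2.70, 2.80 and 3.12 CPM in DMSO and 1.13, 0.883 and 1.22 CPM after carfilzomib, a 2.67-fold fall with a log2 change of -1.42 ± 0.22 (adjusted p = 8.06e-05). In RPMI, with the most BCL2, they held 140.4, 126 and 121 CPM in DMSO and 71.8, 69.8 and 67.2 CPM after carfilzomib, a 1.85-fold fall with a log2 change of -0.89 ± 0.063 (adjusted p = 3.46e-08). BCL2 fell as well in H-1299, from 4.74, 5.97 and 5.27 CPM to 3.38, 2.87 and 3.48 CPM, a change of -0.72 ± 0.16 (adjusted p = 0.00138), and in H-23, from 8.38, 7.46 and 8.34 CPM to 5.21, 5.24 and 5.93 CPM, a change of -0.56 ± 0.12 (adjusted p = 0.00207). No treated library overlapped with DMSO in these 4 lines.

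In H-929 the DMSO libraries held 68.3, 68.4 and 68.2 CPM and the treated libraries 54.2, 62.8 and 59.2 CPM, a change of -0.22 ± 0.094 (adjusted p = 0.0641) with the treatments apart. It passed the test without carfilzomib replicate 2 (-0.30, adjusted p = 0.0227) or carfilzomib replicate 3 (-0.25, 0.0452), without the filter on low counts (-0.30, 0.0172) and in the joint fit of all libraries (-0.38, 0.000627). RKO changed by -0.17 ± 0.14 (adjusted p = 0.517) and DLD-1 by -0.46 ± 0.27 (adjusted p = 0.258). PANC-1 was the one line with a positive estimate, 0.50 ± 0.32 (adjusted p = 0.251), with 1.02 CPM in its highest library.

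**Figure D4:**
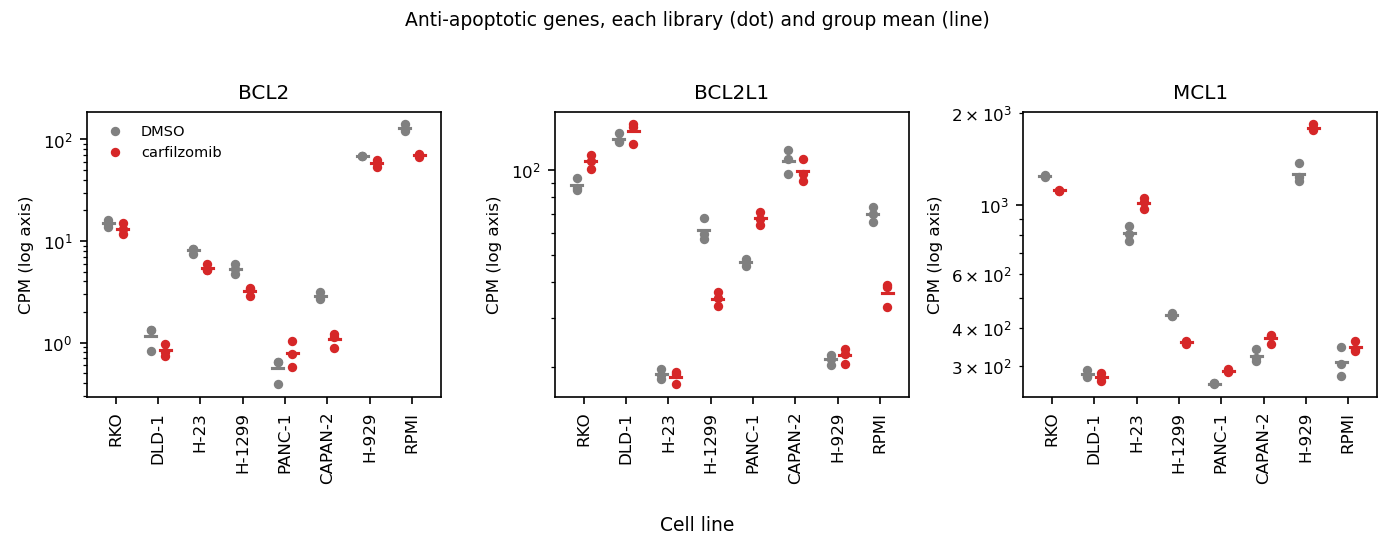
CPM (vertical axis, log scale) of BCL2, BCL2L1 and MCL1 in every library (dots) with group means (lines), by cell line (horizontal axis) and treatment (grey DMSO, red carfilzomib). BCL2 and BCL2L1 drop in RPMI (from 129 to 69.6 and from 69.6 to 36.7 CPM in the mean), while MCL1 of H-929 climbs from a mean of 1268 to 1790.3 CPM.

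BCL2L1 moved both ways. In RPMI the libraries held 65.2, 69.6 and 73.98 CPM in DMSO and 39.04, 38.4 and 32.8 CPM after carfilzomib, a 1.90-fold fall with a log2 change of -0.93 ± 0.076 (adjusted p = 1.44e-07). In H-1299 they held 57.1, 67.7 and 59.5 CPM in DMSO and 32.8, 37.03 and 35.3 CPM after carfilzomib, a change of -0.81 ± 0.073 (adjusted p = 8.07e-07). In PANC-1 they held 47.1, 48.5 and 45.8 CPM in DMSO and 67.1, 64.05 and 71.1 CPM after carfilzomib, a rise of 0.52 ± 0.047 (adjusted p = 2.75e-06). The treatments were apart in all 3 lines.

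In RKO BCL2L1 rose from 86.3, 93.4 and 85.2 CPM to 101, 108 and 113 CPM, by 0.28 ± 0.059 (adjusted p = 0.0107), a call lost without DMSO replicate 3 (0.26, adjusted p = 0.0514) or carfilzomib replicate 3 (0.24, 0.0689). H-929 (0.05 ± 0.13, adjusted p = 0.775), H-23 (-0.03 ± 0.070, adjusted p = 0.748), DLD-1 (0.08 ± 0.062, adjusted p = 0.377) and CAPAN-2 (-0.12 ± 0.079, adjusted p = 0.234) did not pass, with CAPAN-2 passing without DMSO replicate 3 (-0.19, 0.0336). BCL2L1 is spliced into a long anti-apoptotic and a short pro-apoptotic form, which counts per gene do not separate. Its exons overlap with ABALON on the opposite strand, a row with a mean of 229 counts against 1957 for BCL2L1, and whether the counting used strand is not given in the sources used here.

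MCL1, the most abundant of the 4 anti-apoptotic transcripts, changed by no more than 1.41-fold. In H-929 the libraries held 1238, 1368 and 1198 CPM in DMSO and 1832, 1785 and 1754 CPM after carfilzomib, a rise of 0.50 ± 0.071 (adjusted p = 4.39e-05). In H-23 they held 768, 858 and 805 CPM in DMSO and 970.4, 1027 and 1059.8 CPM after carfilzomib, a rise of 0.33 ± 0.041 (adjusted p = 2.53e-05). MCL1 rose by 0.19 ± 0.056 (adjusted p = 0.010) in CAPAN-2 and by 0.14 ± 0.029 (adjusted p = 0.00223) in PANC-1, where the joint fit of all libraries did not call it (0.13, adjusted p = 0.0921). In all of these lines the treated libraries lay above DMSO.

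MCL1 fell in H-1299, from 437, 449 and 437 CPM to 362, 359.8 and 354 CPM, a change of -0.30 ± 0.037 (adjusted p = 1.29e-05). In RKO it went from 1244 ± 6.88 to 1119 ± 6.33 CPM (SD, n = 3), a change of -0.15 ± 0.033 (adjusted p = 0.0121), a call lost without carfilzomib replicate 3 (-0.15, adjusted p = 0.0626), with library totals as the scale (-0.11, 0.0512) and in the joint fit (-0.15, 0.0651). DLD-1 changed by -0.03 ± 0.043 (adjusted p = 0.714). RPMI changed by 0.16 ± 0.071 (adjusted p = 0.0644), and passed without DMSO replicate 1 (0.24, 0.00479), with library totals (0.18, 0.0322) and with DESeq2 (0.16, 0.0395). It passed as well at a filter of 50 mean counts (0.19, adjusted p = 0.0291) and with the replicate number as a block (0.16, 0.0431).

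BCL2A1 could be tested in 4 lines. In PANC-1 the libraries held 2.48, 2.13 and 2.42 CPM in DMSO and 6.08, 5.79 and 7.54 CPM after carfilzomib, a 2.76-fold rise with a log2 change of 1.46 ± 0.15 (adjusted p = 5.84e-06) with the treatments apart. In H-929 they held 3.14, 2.55 and 2.59 CPM in DMSO and 1.010, 1.41 and 1.64 CPM after carfilzomib, a change of -1.03 ± 0.40 (adjusted p = 0.0421) that was lost when any 1 library other than carfilzomib replicate 3 was left out (adjusted p 0.0581 to 0.155) and with DESeq2 (adjusted p = 0.0696). All treated libraries of H-929 still lay below DMSO.

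In RKO, where BCL2A1 was second to MCL1 among the 4 by CPM per kilobase of exon, the change was -0.10 ± 0.072 (adjusted p = 0.438). In H-23 it was 1.34 ± 0.52 (adjusted p = 0.0604) at 0.109 to 0.261 CPM in DMSO and 0.304 to 0.629 CPM after carfilzomib. These libraries held 5 to 11 counts in DMSO and 6 to 22 after carfilzomib, and the joint fit of all libraries called the change (1.33, adjusted p = 0.0297). H-1299 had 0 counts in all 6 libraries, and DLD-1, CAPAN-2 and RPMI had at most 0.127 CPM in any library.

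The make-up of the anti-apoptotic transcripts was described as the share of MCL1, BCL2L1, BCL2 and BCL2A1 in their sum, in counts per kilobase of exon in each library. Shares are mean ± SD (n = 3) and were not tested.

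**Figure D5:**
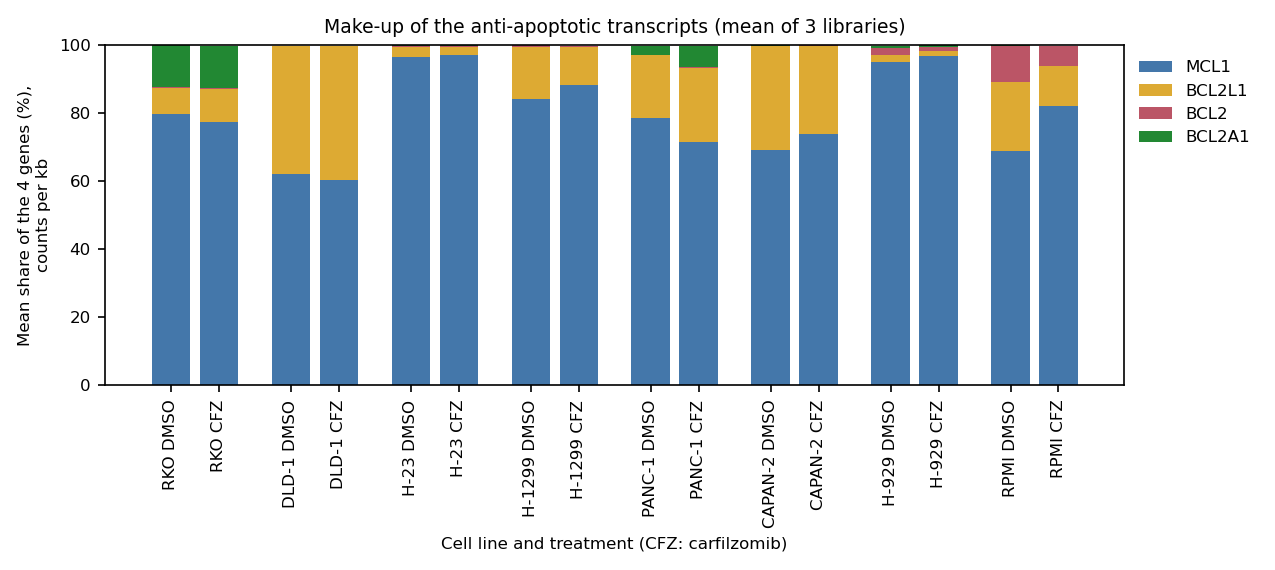
Mean share (vertical axis, percent) of each of the 4 anti-apoptotic genes in their summed counts per kilobase, as stacked bars for each cell line and treatment (horizontal axis; CFZ is carfilzomib). MCL1 fills most of every bar, from 60.5% in DLD-1 after carfilzomib to 97.3% in H-23 after carfilzomib, and its part of the RPMI bar grows from 68.8% to 82.3%.

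MCL1 made up 62.3% ± 1.44 of the sum in DLD-1, 68.8% ± 2.63 in RPMI and 69.3% ± 1.86 in CAPAN-2 in DMSO. It made up 78.6% ± 0.327 in PANC-1, 79.9% ± 0.406 in RKO and 84.2% ± 1.02 in H-1299, and 95.1% ± 0.289 and 96.6% ± 0.341 in H-929 and H-23. By exon length, the next gene was BCL2L1 in 7 lines, with up to 37.6% ± 1.43 in DLD-1, and BCL2A1 in RKO, with 12.3% ± 0.797. This order depended on the length used in 3 lines. With longest-transcript lengths, BCL2 came before BCL2L1 in H-929 (2.68% and 2.39%). With no length, it did so in H-929 (5.03% and 1.57%) and RPMI (25.3% and 13.8%), and BCL2L1 came before BCL2A1 in RKO (6.33% and 3.42%). BCL2 reached 10.6% ± 0.115 in RPMI, 1.91% ± 0.122 in H-929 and at most 0.377% in the carcinoma lines.

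RPMI showed the largest shift. The MCL1 share was 71.4%, 68.8% and 66.2% in the DMSO libraries and 81.1%, 81.7% and 84.1% in the treated libraries. BCL2L1 went from 20.5% ± 2.71 to 11.5% ± 1.28 and BCL2 from 10.6% ± 0.115 to 6.14% ± 0.313, and the treatments did not overlap for any of the 3 genes. In PANC-1 the MCL1 share went the other way, from 78.4%, 78.4% and 78.97% to 72.1%, 72.7% and 69.9%, while BCL2A1 went from 2.81% ± 0.233 to 6.41% ± 0.802.

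Smaller shifts toward MCL1 were seen in H-1299, to 88.3% ± 0.643, CAPAN-2, to 73.8% ± 1.71, H-929, to 96.9% ± 0.149, and H-23, to 97.3% ± 0.133. RKO moved to 77.5% ± 0.139 and DLD-1 to 60.5% ± 2.12. Treated and DMSO libraries overlapped in DLD-1 and were apart in the other lines. In H-1299 the MCL1 share grew although MCL1 itself fell and BCL2L1 fell with it.

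Averaged over the 8 lines in the joint fit, 4 genes were called higher and 4 lower, where 19.8% of all genes were called higher and 23.9% lower. PMAIP1 averaged 0.35 ± 0.041, BBC3 0.30 ± 0.054, BAK1 0.14 ± 0.030 and MCL1 0.06 ± 0.018. BCL2 averaged -0.53 ± 0.055, BIK -0.28 ± 0.078, BCL2L11 -0.23 ± 0.031 and BCL2L1 -0.16 ± 0.028, and BAX, at -0.0023 ± 0.029, was not called. No average is given for BCL2A1, which lacked counts in whole groups. The SE here is the spread between replicates within lines.

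Some of these averages depended on single lines. Without H-929 the average of BBC3 was -0.031 (adjusted p = 0.813), that of MCL1 was 0.02 (0.352), and BAX was called lower at -0.10 (0.00968). BAK1 was not called without H-1299 (0.08, 0.0547), MCL1 not without H-23 (0.03, 0.247) or CAPAN-2 (0.04, 0.0824), and BCL2L1 not without H-1299 (-0.06, 0.111) or RPMI (-0.04, 0.257). With the 8 lines as the units of a limma fit, which could hold 8 of the 10 genes (BIK and BCL2A1 lacked a line), 0 were called in either direction and 1 had an unadjusted p under 0.05. That gene was BCL2, at -0.49 ± 0.18 (adjusted p = 0.143). The share of all genes called by the limma fit is not given here, so the family count cannot be set against it.

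Over the 8 lines, the changes of PMAIP1 and BBC3 had a Pearson correlation of 0.86, and those of BAK1 were opposite to both, with -0.92 to PMAIP1 and -0.90 to BBC3. These are the most extreme of 28 pairs of the 8 genes tested in every line. They are descriptions over 8 points in which H-929 and RPMI stand apart from the other 6, each point shares its libraries between the genes, and no test is given.

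The genes with the most similar pattern over the lines were taken among 11366 genes tested in all 8, by Pearson correlation of the log2 changes (n = 8 lines). They were C12orf57 and ABTB2 for PMAIP1 (both 0.98), JRKL and DNAJC3-DT for BBC3 (both 0.99), ZMYM2 and NOTCH2NLC for BCL2L11 (both 0.95), and FAAP20 (0.98) and TMCO6 (0.97) for BAX. They were ARPC4 and COX6A1 for BAK1 (both 0.97), RPL34P18 (0.95) and NUDCP1 (0.93) for MCL1, H2BC17 (0.95) and NUDT1 (0.92) for BCL2, and BOLA3 (0.99) and SMUG1 (0.98) for BCL2L1. They are the highest values among many candidates over few points, and no test is given. The correlation does not compare the size or sign of changes. PMAIP1 spanned -0.57 to 2.05, against -0.22 to 0.42 for C12orf57 and -0.16 to 1.70 for ABTB2. NUDT1 was below 0 in every line (-0.81 to -0.14), whereas BCL2 spanned -1.42 to 0.50.

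A list of 60 other genes of the pathway was followed with the same test. Of these, 59 could be tested in at least 1 line, giving 454 tests, of which 153 were higher and 104 lower (56.6%, against 41.9% over all genes). By role, other BCL2 family genes gave 30 higher and 22 lower of 102 tests, apoptosome and caspase genes 28 and 20 of 96, and caspase inhibitors 12 and 13 of 40. Mitochondrial partners gave 15 and 7 of 32, genes of MCL1 turnover 25 and 8 of 63, and upstream factors 43 and 34 of 121. The rows of BCL2L14 and TRIM17 share an identifier with another row and are uncertain.

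DDIT3, which encodes CHOP, a stress factor known to act on BH3-only genes, had the largest rise of the list. Its mean went from 7.60 ± 0.852 to 72.7 ± 2.06 CPM in RPMI, a change of 3.28 ± 0.083 (adjusted p = 4.41e-12), and from 14.6 ± 1.90 to 138 ± 13.6 CPM in H-929, 3.24 ± 0.12 (adjusted p = 8.19e-11) (SD, n = 3). It rose by 0.29 to 0.83 in PANC-1, H-1299, H-23 and CAPAN-2, fell by 0.69 in DLD-1 and did not pass in RKO (-0.19 ± 0.080). JUN, a subunit of AP-1, rose in 6 lines, most in H-929, from 106 ± 9.85 to 946 ± 118 CPM, by 3.15 ± 0.10 (adjusted p = 2.11e-11), and in RPMI, from 66.5 ± 13.1 to 376 ± 26.04 CPM, by 2.51 ± 0.11 (adjusted p = 4.1e-10). H-929 and RPMI had the largest changes of DDIT3 and JUN as well as of PMAIP1. They also had the largest changes over all genes, with a median log2 change, regardless of sign, of 0.51 and 0.47. A link between these genes was not tested.

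MDM2, which encodes a ubiquitin ligase, rose in 5 lines, by 0.76 ± 0.058 (adjusted p = 5.52e-08) in CAPAN-2, 0.45 ± 0.094 (adjusted p = 0.00106) in H-929, 0.37 ± 0.041 (adjusted p = 0.000116) in RKO, 0.32 ± 0.037 (adjusted p = 7.64e-06) in H-1299 and 0.22 ± 0.073 (adjusted p = 0.0171) in RPMI. It fell by 0.14 in H-23 (adjusted p = 0.00502), and DLD-1 (-0.02 ± 0.055, adjusted p = 0.838) and PANC-1 (-0.03 ± 0.041, adjusted p = 0.613) did not pass. The call in RPMI was lost without DMSO replicate 1, DMSO replicate 2 or carfilzomib replicate 1 (adjusted p 0.0572 to 0.0914).

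BMF, another BH3-only gene, fell in 5 lines, with the largest fall of the list in RPMI, from 21.1 ± 1.998 to 5.45 ± 0.927 CPM, a change of -1.95 ± 0.14 (adjusted p = 3.51e-08), and no rise. BIRC5, which encodes the caspase inhibitor survivin, fell in 7 lines, by 0.21 on the log2 scale in H-1299 to 1.04 in RPMI, and was not called in CAPAN-2. E2F1, a driver of the cell cycle, fell in 6 lines, most in CAPAN-2 (-1.92 ± 0.084, adjusted p = 2.8e-10). VDAC3, a channel of the outer mitochondrial membrane, rose in 6 lines, most in RPMI (0.94 ± 0.050, adjusted p = 1.95e-09).

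Some of these calls rested on single libraries. Leaving out 1 library at a time, BMF lost its call in H-23 in 4 of 6 fits (without DMSO replicate 2 or 3 or carfilzomib replicate 1 or 2) and in H-1299 without DMSO replicate 1 (adjusted p = 0.0604). DDIT3 lost its call in H-1299 in 3 fits (without DMSO replicate 2 or carfilzomib replicate 1 or 2). E2F1 lost it in DLD-1 in 4 (DMSO replicate 1 or 2, carfilzomib replicate 1 or 3) and in H-929 in 2 (DMSO replicate 3, carfilzomib replicate 2). VDAC3 lost it in H-23 and in PANC-1 in 4 fits each (DMSO replicate 2 or 3, carfilzomib replicate 1 or 3).

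In GENCODE release 29 on GRCh38, PMAIP1 spans chr18:59899948-59904306, plus strand, BBC3 chr19:47220822-47232766, minus strand, BCL2L11 chr2:111119378-111168447, plus strand, and BIK chr22:43110748-43129712, plus strand. BAX spans chr19:48954815-48961798, plus strand, and BAK1 chr6:33572547-33580293, minus strand. MCL1 spans chr1:150574551-150579738, minus strand, BCL2 chr18:63123346-63320128, minus strand, BCL2L1 chr20:31664452-31723989, minus strand, and BCL2A1 chr15:79960889-79971446, minus strand. Counts cover the gene as a whole, without a split into exons, introns or UTRs. Besides ABALON, exons of the family overlap with ADAMTSL4-AS1 (MCL1, same strand, a mean of 129.8 counts against 15500.1) and GGNBP1 (BAK1, opposite strand, 6.48 against 1039).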

How the data were processed

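RNA of 48 libraries (8 lines, DMSO or carfilzomib for 24 h, 3 replicates labelled as biological) was prepared with a stranded total RNA kit, per the labels' protocols, while the series' design text speaks of mRNA. The authors deposited raw counts per gene, one matrix of 33892 rows. Per the submitters' processing notes, bcl2fastq 2.19, FastQC, Trimmomatic, HISAT2, DESeq2 and the build hg38 were used. The counting program, annotation and use of strand are not given in the sources used here.

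From the deposited counts, edgeR 4.0.16 (R 4.3.3) gave TMM-scaled CPM and quasi-likelihood tests within each line after its filterByExpr filter, with Benjamini-Hochberg adjustment over all genes of the line and a threshold of 0.05. A joint fit of the 48 libraries gave the average over lines and the test that lines differ, a fit of the 24 DMSO libraries tested baseline levels, and limma 3.58.1 took lines as units. Lengths are exon unions of GENCODE 29, matched to 29680 rows (87.6%); 4803 rows share an Ensembl identifier with another, none of them a family member. Totals of 9.12 to 64.4 M counts (median 28.8 M) set the precision. The fits were tested on simulated data. Of the pathway list, genes called in the same direction in at least 6 lines, the largest rise and the largest fall (means of at least 50 counts, no overlap) and MDM2 are named; 1 further gene is not reported here. The family, the lists and the tests were chosen with earlier results of these data known. DESeq2 1.42.0, other scalings, filters and left-out libraries were alternatives. Promoter sequence came from RefSeq.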

Additional observations from a re-analysis of the deposited data

Results flagged for a closer look

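The response to carfilzomib differed between the 8 lines for all 10 genes, by the test of that difference in the joint edgeR fit of 48 libraries, which asks whether the log2 change is the same in every line. The same test called 67.7% of all genes. The F statistic was 75.88 for PMAIP1, 48.18 for BCL2L1, 44.51 for BBC3, 22.17 for BAK1, 22.09 for BAX and 21.13 for MCL1. It was 20.29 for BCL2L11, 11.87 for BCL2, 8.12 for BCL2A1 and 4.039 for BIK, with adjusted p from 1.53e-20 for PMAIP1 to 0.00313 for BIK. The dose was set for each line by its IC50, and line and dose cannot be told apart.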

How the results depend on the processing

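The family counts of 22 rises and 23 falls became 6 and 5 when a change had to exceed 1.5-fold (edgeR's glmTreat), and the pathway counts of 153 and 104 became 32 and 22. The share of all genes called at that setting is not given here, so these counts cannot be set against it. Under RLE size factors, library totals, no filter, a filter of 50 mean counts, DESeq2, summed rows of shared identifiers and one fit of all libraries the family counts were 19 to 24 higher and 22 to 25 lower. Leaving out 1 replicate number at a time gave 18 to 21 higher and 18 to 23 lower for the family, 129 to 135 and 76 to 90 for the pathway, 3 to 4 higher and 3 to 4 lower averages over lines, and 9 to 10 genes whose response differed between lines. Leaving out 1 library at a time, 38 of the 45 calls were kept in all 6 fits and 7 were lost in at least 1. The cause was not tested.

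Without H-929 the higher averages went from 4 to 2, and the average of BBC3 turned to -0.031 (adjusted p = 0.813). With lines as units, 0 averages were higher and 0 lower, and the share of all genes called by that fit is not given here. The average of BIK was lost without replicate 2 (-0.21, adjusted p = 0.0642) and that of MCL1 without replicate 3 (0.04, 0.148). With library totals DDIT3 and VDAC3 in H-1299 and VDAC3 in H-23 lost their calls. No strong pairing by replicate number was seen: of 24 correlations between same-numbered samples of a line, 0 exceeded 0.1 (r from -0.12 to 0.097). In 11 of 24 the own number was best, among them every replicate of H-23 and H-1299. With 3 samples per group, these values do not show whether same-numbered samples shared a day or batch. With the replicate number as a block, the family gave 23 rises and 22 falls, the pathway 149 and 104, and the averages 4 and 4; BCL2A1 in H-929 lost its call (adjusted p = 0.0729) and MCL1 in RPMI gained one (0.0431). The RPMI share of MCL1 went from 64.1% to 79.0% with longest-transcript lengths and from 60.9% to 76.5% with no length. Depth was lowest in H-929. Low counts kept BIK in PANC-1 and BCL2A1 in 4 lines from being tested. BCL2A1 was also low in H-23 (5 to 22 counts) and in the treated libraries of H-929 (10 to 15 counts).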
